A study of Mus musculus with 2 samples.

Results

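Interferon-induced genes were followed across the cell classes of tumours made from MC38, a colon carcinoma cell line of the mouse. The set holds 39 genes, chosen by name as genes known to respond to interferons, among 32285 genes counted. Of these, 38 had a row in the count files and all 38 had unique molecular identifier counts (UMIs, 1 per captured RNA molecule) in both libraries, and Mx1 had no row and was not analysed here. Immune cells had been sorted from tumours taken on day 21 and profiled by 3′ single-cell RNA-seq in 2 replicate libraries of 1 group. The labels name no genotype, treatment, age or sex for either library and do not say whether the tumours came from separate animals. With 1 group, what can be compared is one cell class with another inside each library. Values of the 2 libraries are given side by side.

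Interferons reach cells by separate receptors. Type I interferons, made mostly on sensing of nucleic acids, act through Ifnar1 and Ifnar2 and a complex that includes Stat2 and Irf9 and binds the interferon-stimulated response element (ISRE). Interferon gamma, made by T and NK cells, acts through Ifngr1 and Ifngr2 on genes with the gamma-activated site (GAS), and it also induces Irf1, whose protein binds ISRE-like sequences. Many target genes respond to both, so no member reports on 1 interferon alone. The members were split into panels. The type I panel holds 22 genes, Ifit1, Ifit2, Ifit3, Isg15, Isg20, Mx1, Oasl1, Oasl2, Oas1a, Rsad2, Irf7, Irf9, Stat2, Usp18, Bst2, Ifi35, Ifi44, Ifi204, Ifih1, Ifi27l2a, Rtp4 and Ddx58, and 21 of them were counted. The GTPase panel holds the 8 guanylate-binding protein and immunity-related GTPase genes Gbp2, Gbp2b, Gbp3, Gbp4, Gbp5, Gbp7, Irgm1 and Iigp1, whose proteins attack the membranes of intracellular microbes. The other members were 2 further immunity-related GTPase genes (Igtp and Ifi47), the membrane proteins of the Ifitm family that hinder virus entry (Ifitm1, Ifitm2, Ifitm3 and Ifitm6), the surface antigens Ly6a and Ly6i, and the transcription factor Irf1.

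Start-site sequences are shown because both panels hold ISRE matches, while their RNA levels went apart between the libraries. The stretches are the 200 bases before the start site in RefSeq's promoter table (GRCm38.p6), 5′ to 3′ on the gene's strand, with capitals marking matches of the ISRE letters (GAAA, any 2 bases, GAAA) or the GAS letters (TTC, any 3 bases, GAA) on either strand. They belong to Isg15, a ubiquitin-like modifier, at chr4:156200819-156201018 (minus strand), to Ifit1, a sensor of foreign RNA caps, at chr19:34640689-34640888 (plus strand), to Gbp2 at chr3:142620463-142620662 (plus strand), to Gbp2b at chr3:142594647-142594846 (plus strand), to Gbp5 at chr3:142496734-142496933 (plus strand) and to Irgm1 at chr11:48871421-48871620 (minus strand).
Isg15: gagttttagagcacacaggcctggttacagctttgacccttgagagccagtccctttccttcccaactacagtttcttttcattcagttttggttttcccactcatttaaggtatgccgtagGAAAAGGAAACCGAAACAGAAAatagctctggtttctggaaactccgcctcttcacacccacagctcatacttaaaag
Ifit1: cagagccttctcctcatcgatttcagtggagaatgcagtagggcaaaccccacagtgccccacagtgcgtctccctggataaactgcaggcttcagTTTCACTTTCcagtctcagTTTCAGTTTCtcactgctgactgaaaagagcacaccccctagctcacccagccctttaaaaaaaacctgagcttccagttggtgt
Gbp2: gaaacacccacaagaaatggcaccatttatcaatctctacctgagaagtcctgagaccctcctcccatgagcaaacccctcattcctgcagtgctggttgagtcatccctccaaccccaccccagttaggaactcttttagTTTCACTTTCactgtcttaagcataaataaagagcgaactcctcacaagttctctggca
Gbp2b: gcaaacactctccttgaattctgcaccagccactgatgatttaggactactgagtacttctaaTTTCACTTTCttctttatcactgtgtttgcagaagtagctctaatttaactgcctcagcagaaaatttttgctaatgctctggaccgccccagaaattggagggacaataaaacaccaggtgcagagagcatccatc
Gbp5: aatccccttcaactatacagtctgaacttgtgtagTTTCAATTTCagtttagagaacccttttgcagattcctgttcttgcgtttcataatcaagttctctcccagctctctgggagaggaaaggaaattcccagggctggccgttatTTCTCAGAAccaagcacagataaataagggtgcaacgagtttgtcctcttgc
Irgm1: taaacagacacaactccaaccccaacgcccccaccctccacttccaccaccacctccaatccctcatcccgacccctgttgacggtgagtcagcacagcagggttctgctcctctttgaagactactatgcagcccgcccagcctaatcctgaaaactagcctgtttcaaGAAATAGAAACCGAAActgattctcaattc

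These 6 genes were chosen after their values were seen. In Isg15 and Irgm1 the capital runs are overlapping ISRE matches. Ifit1 held 2 separate ISRE matches and no GAS match, and Gbp5 held an ISRE match and, nearer the start, a GAS match. Over the full 300 bases of the table (250 before and 50 after the start), 30 of the 39 members had an entry. An ISRE match was found in 18 of these 30 (60%) against 3.99% of all 27025 genes with an entry. It was found in 9 of 17 type I panel genes and in 6 of 6 GTPase panel genes. A GAS match was found in 11 of the 30 members (36.7%) against 9.55% of all genes, with 5 of 17 in the type I panel and 2 of 6 in the GTPase panel. A match is a run of letters and was not tested as a binding site. Gbp5, Gbp7, Gbp3, Gbp2b and Gbp2 lie next to each other on chromosome 3, from 142493978 to 142638008 in mm10, while Gbp4 lies on chromosome 5 and Irgm1, Igtp and Ifi47 on chromosome 11.

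The libraries held 5688000 and 5862342 UMIs over 2749 and 2937 barcodes, with 0 barcodes shared. Cell classes were built from clusters made without any gene of the lists used here. They comprised, in replicates 1 and 2, 863 and 879 macrophages with a C1q UMI, 58 and 30 monocytes, 28 and 167 neutrophils, 99 and 23 type 2 dendritic-like cells, 29 and 27 mature migratory dendritic cells, 28 and 22 plasmacytoid dendritic cells, 130 and 319 T cells with a Cd3 UMI, and 626 and 772 tumour-like barcodes without a Ptprc or Tyrobp UMI. Type 1 dendritic cells numbered 167 and 4 and are described in replicate 1 only. The name tumour-like marks only this lack of leukocyte RNA in the clusters taken for the class. A cluster led by Mgp and Sparcl1, with 0 and 166 barcodes, was left out. It too held little Ptprc (7.25 CPM) and Tyrobp (19.3 CPM). A fibroblast-like cluster led by Col1a1, with 2 and 40 barcodes, was also left out. The epithelial genes Krt8, Krt18 and Epcam together stood at 0 and 1.65 CPM in those barcodes, so their identity as carcinoma cells was not shown.

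The libraries stood apart within the macrophage class. In replicate 1, 767 of 863 macrophages came from a cluster led by Lyz2, Apoe, Fcrls and Trem2, and in replicate 2, 835 of 879 came from a cluster with Il1b, Il1rn, Fcgr4 and Clec4n among its leading genes. None of the macrophage markers led the second, whose name rests on C1q and is uncertain. Its mean log2 ratio over all other barcodes was 1.31 for the monocyte markers and 0.991 for the macrophage markers. C1q was also high in other leukocyte classes, as given below. The macrophage class may thus not hold the same cell type in both libraries. Lyz2, which encodes lysozyme, stood at 7594 and 20.7 CPM in the macrophages, and Xist at 612 and 0 CPM. The Lyz2 difference was not limited to macrophages, as every other class was lower in replicate 2 too. Monocytes held 12024 and 41.1 CPM of Lyz2, neutrophils 3594 and 8.98 and T cells 3799.5 and 22.5. Y-linked genes had 0 and 139 UMIs in macrophages, 0 and 57 in T cells and 0 and 82 in tumour-like barcodes. Differences between the libraries therefore cannot be told apart from differences between their animals or in the origin of the tumour-like barcodes, sex among them. Tumour-like barcodes also came from different clusters in each library, so this class too may not hold the same cell type in both. C1q RNA stood at 10927 and 7495 CPM in macrophages and also at 6000.1 and 4577 in T cells, 7125 and 5283 in neutrophils and 7215 and 5147 in mature dendritic cells, but at 72.6 and 53.5 in tumour-like barcodes. Member RNA in T cells, neutrophils and dendritic cells therefore came with macrophage RNA in the same barcodes, and its part in those levels was not tested.

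Type I panel RNA was abundant in every leukocyte class and low in tumour-like barcodes. Levels are UMIs of a gene or panel scaled to 1000000 UMIs of the class (CPM), with 95% Poisson intervals that cover counting error only. The panel stood at 3248 (3160.3 to 3338) and 3335 (3235 to 3438) CPM in macrophages of replicates 1 and 2. Monocytes were higher, at 4245 (3790.3 to 4739) and 4853 (4017 to 5812) CPM. Neutrophils stood at 3324 (2828 to 3880.2) and 4192 (3928 to 4470.0) CPM. T cells stood at 3543 (3338 to 3757) and 2907 (2770.1 to 3049.8), plasmacytoid dendritic cells at 4331 (3758 to 4966) and 3829.6 (3211 to 4533), mature dendritic cells at 2844 (2438 to 3298) and 3215 (2733 to 3757) and type 2 dendritic-like cells at 1919 (1697 to 2162) and 2615 (1964 to 3412). Tumour-like barcodes held 834 (794 to 875) and 640.1 (609 to 673) CPM, below every leukocyte class in both libraries. Monocytes were above macrophages in both libraries and type 2 dendritic-like cells below them, with counting intervals apart except in replicate 2 of the type 2 dendritic-like cells. The latter rests on how that class was made, since UMI gates on marker genes in place of clusters gave it 2905 and 3409 CPM against 3123 and 3126 in macrophages, below them in replicate 1 and above them in replicate 2. T cells lay above macrophages in replicate 1 and below them in replicate 2, and the intervals of neutrophils, plasmacytoid and mature dendritic cells overlapped those of macrophages in at least 1 library. Type 1 dendritic cells of replicate 1 held 2252 (2112 to 2399) CPM. Bst2 and Ifi27l2a made up much of these panel levels. Without them macrophages stood at 1140.2 (1088 to 1194) and 1388 (1324 to 1455) CPM. Monocytes then stood at 1526 (1259 to 1834) and 1604 (1141 to 2193), with intervals apart in replicate 1 only. Type 2 dendritic-like cells stayed lower, at 810.3 (668 to 973) and 1114 (706 to 1671). Plasmacytoid dendritic cells of replicate 1 fell to 951 (693 to 1272), an interval that overlapped that of macrophages.

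The GTPase panel differed by library in every class. Gm42418, an RNA that overlaps ribosomal RNA sequence, differed as well, with 12.7% and 5.90% of the UMIs in macrophages, 20.3% and 3.90% in neutrophils, 22.9% and 13.2% in monocytes and 5.27% and 2.10% in tumour-like barcodes, and its part in the levels was not tested. The GTPase panel stood at 305 (279 to 334) CPM in macrophages of replicate 1 and at 1270.4 (1209 to 1334) in those of replicate 2. T cells held 383 (318 to 458) and 875 (800.1 to 954) CPM, and neutrophils 270.0 (144 to 462) and 1167 (1029 to 1318). Monocytes held 187 (102 to 315) and 1069 (699 to 1567), plasmacytoid dendritic cells 190.1 (86.9 to 361) and 1362 (1004 to 1805) and mature dendritic cells 211 (112 to 361) and 956 (703 to 1272). Type 2 dendritic-like cells held 135 (81.3 to 211) and 484 (232 to 890.4). Tumour-like barcodes held 221 (201 to 243) and 413 (388 to 439) CPM. Replicate 2 was the higher library in all 8 of these classes, and the counting intervals of the 2 libraries did not overlap in any of them. Type 1 dendritic cells of replicate 1 held 195 (155 to 242) CPM.

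**Figure D1:**
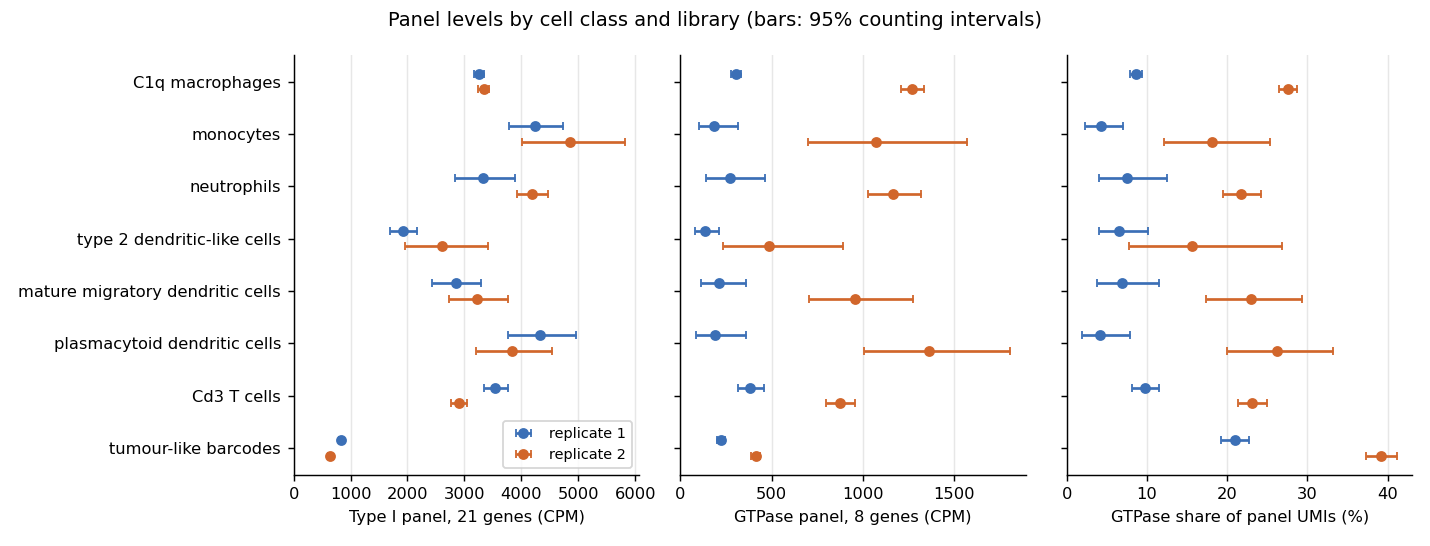
Summed levels of the type I panel (left) and the GTPase panel (middle) in CPM, and the GTPase share of the UMIs of both panels in percent (right), for 8 cell classes (rows) in replicate 1 (blue) and replicate 2 (orange), with 95% counting intervals. GTPase levels of replicate 2 lie to the right of replicate 1 in each row, type I levels differ in either direction, and tumour-like barcodes have the lowest type I level and the highest GTPase share in each library.

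The balance between the panels was read as the share of the UMIs of both panels that came from the GTPase panel, which needs no scaling between classes. In replicate 1 the share was 8.59% (7.87 to 9.35) in macrophages, 9.76% (8.16 to 11.5) in T cells, 7.51% (4.06 to 12.5) in neutrophils, 4.23% (2.33 to 6.99) in monocytes and 4.21% (1.94 to 7.83) in plasmacytoid dendritic cells, with exact binomial 95% intervals. In replicate 2 it was 27.6% (26.4 to 28.8), 23.1% (21.4 to 25), 21.8% (19.5 to 24.2), 18.1% (12.1 to 25.3) and 26.2% (20 to 33.2) in the same classes. Mature dendritic cells stood at 6.91% (3.73 to 11.5) and 22.9% (17.4 to 29.3), and type 2 dendritic-like cells at 6.57% (4.0 to 10.1) and 15.6% (7.76 to 26.9). Tumour-like barcodes had the highest share in each library, 21% (19.3 to 22.8) and 39.2% (37.3 to 41.1). Their intervals lay above those of all 7 leukocyte classes with 15 or more barcodes in the same library, and the leukocyte shares of replicate 2 lay above those of replicate 1 class by class. Over both libraries the share averaged 18.1% ± 13.4 in macrophages and 30.1% ± 12.9 in tumour-like barcodes (SD, n = 2). Paired within a library, tumour-like barcodes were higher in both. Bst2 and Ifi27l2a, which are abundant, weighed on it. Without Bst2 and Ifi27l2a in the type I panel the share was 39.1% and 59.1% in tumour-like barcodes and 21.1% and 47.8% in macrophages. Plasmacytoid dendritic cells of replicate 2 then had the highest share, 64% (52.1 to 74.8).

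A few members carried most of the RNA. Counts from the 3′ end are not normalised by gene length, so levels of different genes are compared only as UMIs captured. Members were ranked by their mean over the libraries, and the order often differed between replicates 1 and 2, whose values are given in that sequence. In macrophages the highest were Ifitm3 (882 and 2131 CPM), Ifi27l2a (1379 and 1559), a small interferon-induced membrane protein gene, and Ifitm2 (469 and 1162). Ifi27l2a led in replicate 1 and Ifitm3 in replicate 2, and Ifitm2 was exceeded by Bst2 (729) in replicate 1 and by Ifitm1 (1260.1) in replicate 2. Monocytes had Ifi27l2a (2317 and 2961 CPM), Ifitm3 (2129 and 3003) and Ifitm2 (669.5 and 1604), and neutrophils Ifi27l2a (1433 and 2141), Ifitm3 (748 and 2316) and Ifitm2 (644 and 1329). In both classes Ifi27l2a led in replicate 1 and Ifitm3 in replicate 2, with Ifitm2 the third in each. T cells had Ifi27l2a (1839.6 and 1576 CPM), Ifitm3 (861 and 1767) and Ifitm1 (310.3 and 1293), and in replicate 1 Bst2 (557) exceeded Ifitm1. Mature dendritic cells had Ifitm3 (422 and 2625 CPM), Ifi27l2a (1105 and 1241) and Ifitm2 (455 and 1424), of which Ifitm3 led in replicate 2 and Ifi27l2a in replicate 1. Type 2 dendritic-like cells had Ifitm1 (1173 and 3292 CPM), Ifitm3 (1756 and 2227) and Ifi27l2a (697 and 1356), with Ifitm3 ahead in replicate 1. Plasmacytoid dendritic cells had Bst2 (2408 and 1106 CPM), which encodes the virus-tethering protein tetherin, Ifi27l2a (972 and 1957) and Ifitm3 (486 and 2269). Bst2 led them in replicate 1 alone, and Ifitm3 led in replicate 2. Tumour-like barcodes had Ifitm3 (464 and 656 CPM) in front in both libraries, then Bst2 (434 and 322) and Ifitm2 (286 and 327), with Ifi27l2a at only 55.2 and 33.

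Macrophages were compared with tumour-like barcodes in UMIs summed per library and class. The test was edgeR's quasi-likelihood test with Benjamini-Hochberg adjustment over the 2279 genes tested and the library as a block. Macrophages held more RNA of 15 members and less of 0, where 26 of the 39 members were tested, 12 fell below the filter on low counts and 1 had no row. Of all tested genes 31.0% were called higher and 32.8% lower, and their median log2 fold change was -0.20. A member passed the filter more easily where some class held it at a high level, so the tested members are not all members and their count supports nothing beyond the genes named. Of the type I panel 8 of 10 tested genes were higher, of the GTPase panel 1 of 7, of the Ifitm genes 3 of 4, of the Ly6 genes 2 of 2, of Igtp and Ifi47 1 of 2, and Irf1 did not pass.

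Ifi27l2a stood at 1379 and 1559 CPM in macrophages against 55.2 and 33 in tumour-like barcodes of replicates 1 and 2, a log2 fold change of 4.56 (SE 0.33, adjusted p = 4.55e-11). Ifi204, which encodes a DNA-binding protein of the HIN-200 family, stood at 128 and 179 against 1.99 and 5.35 CPM, a log2 fold change of 4.88 (SE 0.45, adjusted p = 2.14e-09). Irf7, the transcription factor that amplifies type I interferon production, stood at 149 and 123 against 8.95 and 3.30 CPM, a log2 fold change of 4.02 (SE 0.47, adjusted p = 1.24e-07). For these 3 genes both macrophage values lay far above both tumour-like values. Ifitm1 stood at 98.2 and 1260.1 against 2.98 and 17.7 CPM (log2 fold change 5.24, SE 0.52, adjusted p = 8.21e-09) and Ly6i at 7.55 and 256 against 0 and 2.88 CPM (log2 fold change 5.67, SE 0.67, adjusted p = 1.42e-07). Both were higher in macrophages within each library, Ly6i against 0 UMIs in replicate 1 so that its fitted value depends on the handling of the 0, but the macrophage levels themselves differed widely between the libraries. Isg15 stood at 239 and 287 against 85.6 and 78.7 CPM, a smaller log2 fold change of 1.20 (SE 0.28, adjusted p = 7.72e-04). Stat2, a subunit of the ISRE-binding complex, stood at 20.8 and 48.6 against 6.47 and 12.4 CPM (log2 fold change 1.37, SE 0.56, adjusted p = 0.0379). Bst2, at 729 and 388 against 434 and 322 CPM, was higher in macrophages of both libraries in CPM, but after TMM scaling it did not pass the test (log2 fold change 0.03, SE 0.25, adjusted p = 0.919) and replicate 2 alone gave a log2 fold change of -0.14.

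Among the Ifitm and Ly6 genes the others had smaller values. Ifitm2 stood at 469 and 1162 against 286 and 327 CPM (log2 fold change 0.75, SE 0.28, adjusted p = 0.0234), Ifitm6 at 9.44 and 84.4 against 0.497 and 3.71 (log2 fold change 3.73, SE 0.68, adjusted p = 5.54e-05) and Ly6a, the gene of the stem cell antigen Sca-1, at 200.1 and 851 against 18.4 and 167 (log2 fold change 2.25, SE 0.39, adjusted p = 2.82e-05). Ifitm3, at 882 and 2131 against 464 and 656 CPM, did not pass (log2 fold change 0.81, SE 0.37, adjusted p = 0.0573). Tumour-like barcodes of replicate 2 held Ly6a near the macrophage level of replicate 1.

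The tested GTPase genes separated these classes little. Gbp5 fell below the filter on low counts and was higher in macrophages in the unfiltered fit given below. Gbp2 stood at 73 and 368 CPM in macrophages against 88.5 and 149 in tumour-like barcodes (log2 fold change 0.03, SE 0.39, adjusted p = 0.953). In replicate 1 macrophages were the lower class for it and in replicate 2 the higher. Gbp3 had a log2 fold change of 0.81 (SE 0.39, adjusted p = 0.071), Gbp4 0.69 (SE 0.46, adjusted p = 0.193), Gbp7 0.57 (SE 0.51, adjusted p = 0.332), Irgm1 0.66 (SE 0.44, adjusted p = 0.195) and Iigp1 0.52 (SE 0.34, adjusted p = 0.183). Igtp stood at 35.9 and 90 against 15.4 and 58.9 CPM (log2 fold change 0.42, SE 0.37, adjusted p = 0.335), and Ifi47, at 68.6 and 199 against 25.4 and 34.2, was the immunity-related GTPase gene that passed (log2 fold change 1.55, SE 0.36, adjusted p = 6.42e-04). Irf1 stood at 71.7 and 146 against 44.3 and 47 CPM (log2 fold change 0.68, SE 0.37, adjusted p = 0.108). Gbp2b was the exception among the tested genes of the panel. It had 0 and 1 UMIs in tumour-like barcodes against 4 and 173 in macrophages, of which nearly all came from replicate 2, and its fitted log2 fold change of 7.10 (SE 0.87, adjusted p = 4.68e-07) depends on the handling of the 0. After TMM scaling the log2 fold change from replicate 1 alone was -0.77 for Gbp2, -0.68 for Gbp4 and -0.21 for Gbp7, and from replicate 2 alone it was 0.88, 1.52 and 1.57, so their sign turned with the library. For Gbp7 this came with the scaling, since its CPM was higher in macrophages of both libraries (59.2 and 152 against 48.3 and 36.2).

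How the sums were scaled mattered here. With total UMIs in place of TMM factors, an alternative chosen after the data were seen, the median over all tested genes moved from -0.20 to 0.27. Then 21 members were higher and 0 lower, among 38.3% of all genes higher and 18.7% lower, and 5 of 7 GTPase genes passed in place of 1. The small GTPase differences are therefore not separable from the choice of scale, while no tested member was called lower under either. Of the 12 members below the filter, an unfiltered fit called 8 higher, with 10.5% of its 16349 genes higher and 13.4% lower. They included Oasl1 (log2 fold change 4.22, SE 0.64, adjusted p = 1.08e-09), Ifit2 (log2 fold change 3.11, SE 0.57, adjusted p = 7.92e-07), Oas1a (log2 fold change 2.62, SE 0.54, adjusted p = 1.35e-05) and Gbp5 (log2 fold change 2.28, SE 0.50, adjusted p = 6.27e-05). Ifit1 (log2 fold change 0.77, SE 0.42, adjusted p = 0.194), Isg20 (log2 fold change 0.91, SE 0.48, adjusted p = 0.176), Ifi44 (log2 fold change 0.12, SE 0.53, adjusted p = 0.922) and Ddx58, the gene of the RNA sensor RIG-I (log2 fold change -0.24, SE 0.48, adjusted p = 0.761), did not pass there.

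**Figure D2:**
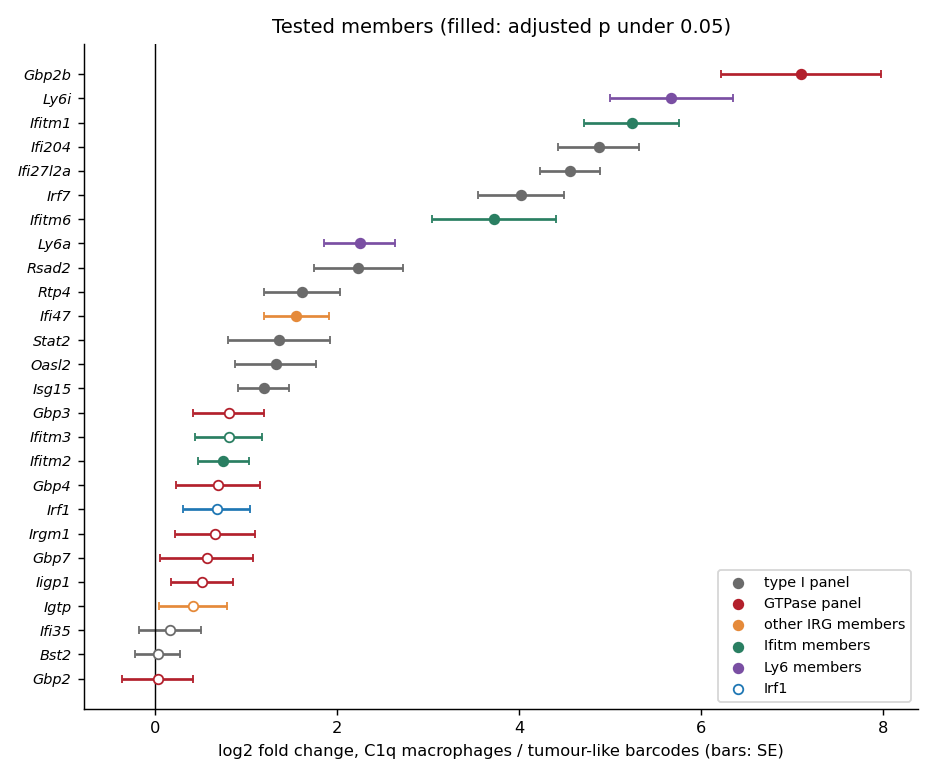
Log2 fold change of macrophages over tumour-like barcodes (x axis, bars are SE) for the 26 tested members (rows), coloured by group, with filled points at an edgeR adjusted p under 0.05. Below Gbp2b, type I, Ifitm and Ly6 genes fill most of the upper rows, while all GTPase panel genes but Gbp2b are open points between 0.03 and 0.81.

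Within macrophages the 2 libraries differed for the GTPase, Ifitm1 and Ly6 genes and much less for the type I panel. The libraries are replicates of 1 group and there is 1 library a side, so these are differences between libraries with counting intervals and no test. All 8 GTPase panel genes were over 2-fold higher in replicate 2, beside 12.7% of the 9576 genes with 10 or more UMIs in all, and 5.23% were over 2-fold higher in replicate 1. Of the 21 type I panel genes 2 were over 2-fold higher in replicate 2 (Stat2 and Ifit2) and 1 in replicate 1 (Ifit3). The median log2 ratio was 1.96 over the GTPase panel, 0.42 over the type I panel and 0.21 over all genes.

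Gbp2b had 4 UMIs in macrophages of replicate 1 and 173 in those of replicate 2, or 2.52 and 138 CPM, a ratio of 54.7-fold (21 to 203). Gbp4 stood at 12 and 142 CPM, 11.9-fold (7.41 to 20.3). Gbp5 stood at 18.9 and 111 CPM, 5.86-fold (3.93 to 9.01), and Gbp2 at 73 and 368, 5.04-fold (4.10 to 6.23). The other panel genes differed less. Gbp3 (37.1 and 111 CPM), Irgm1 (34 and 97.9), Gbp7 (59.2 and 152) and Iigp1 (68.6 and 150.4) had ratios of 3.0-fold (2.20 to 4.14), 2.88-fold (2.08 to 4.05), 2.57-fold (2.0 to 3.33) and 2.19-fold (1.72 to 2.80). Igtp stood at 35.9 and 90 CPM, 2.51-fold (1.81 to 3.51), and Ifi47 at 68.6 and 199, 2.90-fold (2.31 to 3.67). The neighbouring Gbp genes of chromosome 3 thus ran from 2.57-fold to 54.7-fold.

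Ly6i stood at 7.55 CPM (3.90 to 13.2) and 256 CPM (229 to 286), 33.9-fold (19.2 to 66.4) higher in replicate 2, and Ly6a at 200.1 and 851 CPM, 4.25-fold (3.75 to 4.83). Ifitm1 stood at 98.2 CPM (83.4 to 115) and 1260.1 CPM (1199 to 1324), 12.8-fold (10.9 to 15.2). Ifitm6 stood at 9.44 and 84.4 CPM, 8.94-fold (5.18 to 16.5). Ifitm2 and Ifitm3, which were abundant in both libraries, differed by 2.48-fold (2.27 to 2.71) and 2.42-fold (2.26 to 2.58), so the 4 Ifitm genes, neighbours on chromosome 7, split into 2 with large and 2 with moderate ratios. Irf1 stood at 71.7 and 146 CPM, 2.03-fold (1.60 to 2.59).

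On the type I side, Isg15 stood at 239 CPM (216 to 264) and 287 CPM (258 to 318), a ratio of 1.20-fold (1.03 to 1.39). Ifit1 (1.37-fold, interval 1.03 to 1.84), Rsad2, the gene of the antiviral enzyme viperin (1.34-fold, interval 1.01 to 1.77), Rtp4 (1.47-fold, interval 1.12 to 1.93), Oasl2 (1.64-fold, interval 1.25 to 2.14) and Ifi204 (1.40-fold, interval 1.15 to 1.69) were slightly higher in replicate 2. Irf7 stood at 149 and 123 CPM, 0.822-fold (0.667 to 1.01), and Irf9 at 30.8 and 39, 1.26-fold (0.834 to 1.92), with intervals that include a ratio of 1. Bst2 was lower in replicate 2, at 729 and 388 CPM, 0.532-fold (0.478 to 0.592), as was Ifit3, at 68.6 and 32.6, 0.476-fold (0.324 to 0.687). Stat2 was the type I gene with the highest ratio, 20.8 and 48.6 CPM and 2.34-fold (1.51 to 3.69), and Usp18, which removes Isg15 from proteins and restrains the type I receptor, stood at 20.1 and 16.7 CPM, 0.830-fold (0.455 to 1.48).

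**Figure D3:**
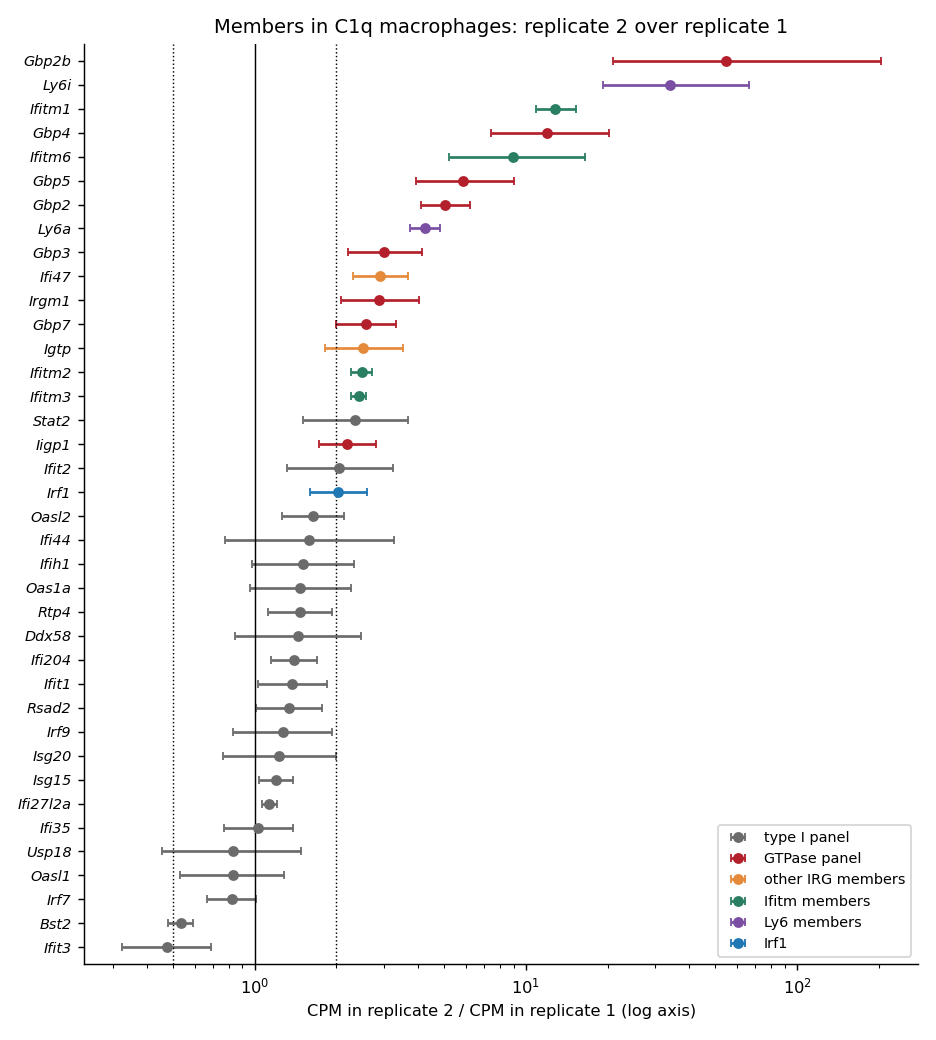
Ratio of CPM in replicate 2 to CPM in replicate 1 in C1q macrophages (x axis, log scale, bars are 95% counting intervals) for 38 members (rows), coloured by group, with dotted lines at 2-fold. GTPase, Ly6 and Ifitm genes hold the rows above 2-fold together with Stat2, Ifit2, Ifi47, Igtp and Irf1, and the other type I panel genes lie between 0.476-fold for Ifit3 and 1.64-fold for Oasl2.

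Other classes showed the same library difference in part. In T cells Gbp2b had 0 and 36 UMIs, at least 6.55-fold higher in replicate 2 with replicate 1 set to 3 UMIs. Irgm1 stood at 12.7 and 58.8 CPM, 4.64-fold (1.65 to 18), Gbp4 at 41.2 and 116, 2.81-fold (1.54 to 5.56), Iigp1 at 38 and 100.3, 2.64-fold (1.40 to 5.4), and Gbp5 at 41.2 and 89.9, 2.18-fold (1.17 to 4.37). Gbp2, at 111 and 214 CPM, Gbp3, at 44.3 and 86.4, and Gbp7, at 95 and 147, had ratios of 1.93-fold (1.32 to 2.90), 1.95-fold (1.06 to 3.82) and 1.55-fold (1.01 to 2.43). All 8 were thus higher in replicate 2, and 5 of them over 2-fold, beside 1386 of 6946 genes over 2-fold higher in replicate 2 of the T cells and 285 in replicate 1. The median log2 ratio over these genes was 0.30, and 4 of the 8 were over 2-fold higher relative to it. The type I panel of T cells went both ways, with Oasl2 at 28.5 and 67.4 CPM, 2.37-fold (1.13 to 5.55), but Usp18 at 28.5 and 6.91, Isg20 at 101 and 34.6 and Ifit3 at 57 and 22.5, ratios of 0.243-fold (0.0546 to 0.869), 0.341-fold (0.185 to 0.615) and 0.394-fold (0.178 to 0.851). In neutrophils 6 of 8 were over 2-fold higher, beside 33.9% of 3183 genes, with 4.65% in replicate 1. The count includes Gbp2b and Gbp5, which had 0 UMIs against 27 and 20, a ratio of at least 1.94-fold and 1.44-fold with replicate 1 set to 3 UMIs. Gbp2 stood at 83.1 CPM (22.6 to 213) and 404 CPM (325 to 497) in them.

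In tumour-like barcodes 3 of the 7 GTPase panel genes with 10 or more UMIs were over 2-fold higher in replicate 2, beside 25.6% of 10235 genes, with 8.50% in replicate 1. They were Iigp1 (22.4 and 109 CPM, 4.86-fold, interval 3.53 to 6.82), Irgm1 (15.9 and 44.1, 2.77-fold, interval 1.85 to 4.25) and Gbp4 (14.9 and 35, 2.35-fold, interval 1.53 to 3.69). The median log2 ratio over the 10235 genes was 0.40. Relative to it, 2 of the 7 panel genes were over 2-fold higher, beside 15.5% of genes. Igtp differed as well, at 15.4 and 58.9 CPM, 3.82-fold (2.58 to 5.83), and Ly6a by 9.09-fold (6.48 to 13.1), at 18.4 and 167. Gbp7 (48.3 and 36.2 CPM) and Gbp5 (7.46 and 8.65) had intervals of the ratio that include 1. Of the type I panel, Rsad2 (18.9 and 5.77 CPM), Irf7 (8.95 and 3.30) and Ddx58 (27.9 and 12.4) were over 2-fold lower in replicate 2 of the tumour-like barcodes, and Irf9 (3.98 and 11.1), Usp18 (1.99 and 5.77), Ifi204 (1.99 and 5.35) and Ifi44 (5.97 and 12.4) were over 2-fold higher, from few UMIs.

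The macrophage clusters that hold most of each library also occur, in small numbers, in the other. In the Trem2 cluster the type I panel stood at 3196 (3104 to 3291) CPM in 767 barcodes of replicate 1 and at 1846 (1439 to 2332) in 33 of replicate 2. In the Il1b cluster it stood at 5470.4 (4574 to 6491) CPM in 15 barcodes of replicate 1 and at 3410.0 (3306 to 3516) in 835 of replicate 2. The GTPase panel stood at 301 (273 to 331) and 791 (534 to 1129) CPM in the Trem2 cluster and at 626 (351 to 1033) and 1293 (1229.6 to 1359) in the Il1b cluster. Compared within a cluster, the type I panel was lower and the GTPase panel higher in replicate 2, and compared within a library both panels were higher in the Il1b cluster. The like type I level of the 2 libraries over all macrophages therefore came with different cluster makeup. The GTPase share was 8.60% (7.83 to 9.42) and 30% (21.2 to 40) in the Trem2 cluster, 10.3% (5.87 to 16.4) and 27.5% (26.3 to 28.7) in the Il1b cluster and 8.05% (5.93 to 10.6) and 35.3% (19.7 to 53.5) in cycling macrophages (81 and 11 barcodes), so it went with the library in each cluster. Clusters were formed on expression, and these values are a description.

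Single genes showed this too, as far as the small groups allow. Isg15 stood at 230.0 CPM in the Trem2 cluster of replicate 1 and had 0 UMIs in the 33 barcodes of replicate 2, which allows up to 79.1 CPM for counting error, while in the Il1b cluster it stood at 626 CPM (351 to 1033) and 298 CPM (268 to 330.4). Gbp2 stood at 72.2 and 211 CPM (91.1 to 416) in the Trem2 cluster and at 83.5 CPM (10.1 to 302) and 376 CPM in the Il1b cluster. Ifitm1 stood at 94.8 and 422 CPM (241 to 685) in the former and at 251 CPM (91.9 to 545) and 1294 in the latter, higher in replicate 2 in both. Ly6i, one of the leading genes of the Il1b cluster, had 0 UMIs in its 15 barcodes of replicate 1 (up to 125 CPM) against 268 CPM in replicate 2, and was not detectable at this depth in the 33 Trem2 barcodes of replicate 2.

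**Figure D4:**
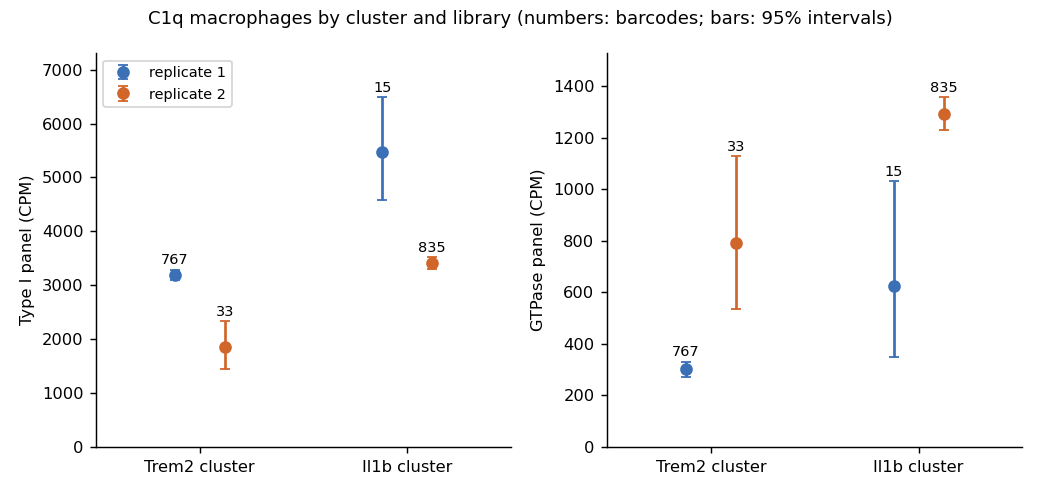
Type I panel (left) and GTPase panel (right) in CPM (y axis) in the Trem2 and Il1b clusters of C1q macrophages, for replicate 1 (blue) and replicate 2 (orange), with 95% counting intervals and the number of barcodes. Within each cluster the type I panel is lower and the GTPase panel higher in replicate 2, and the groups of 33 and 15 barcodes have the wide intervals.

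Among tumour-like barcodes, the main cluster of replicate 1 held the GTPase panel at 255 (231 to 282) CPM and the type I panel at 918 (871 to 967), and its cycling cluster 101 (73.8 to 135) and 538 (472 to 610.2). The main cluster of replicate 2 held 424 (396 to 453) and 586 (552 to 620.2) CPM and its second cluster, led by Nppb and Sox4, 368 (314 to 429) and 872 (788 to 963). Both clusters of replicate 2 had the higher GTPase level, whereas type I levels overlapped across libraries. Iigp1 had 0 UMIs in the cycling cluster of replicate 1 (up to 6.75 CPM) and stood at 28.7 CPM in its main cluster, against 110.2 and 103 CPM in the 2 clusters of replicate 2.

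No tested member passed between T cells and macrophages of the same libraries. In edgeR's test 0 of 26 members were higher and 0 lower, and 0 had an unadjusted p under 0.05, where 1.40% of 2279 genes were higher and 0% lower, and DESeq2's Wald test also called 0 members. The smallest adjusted p values were those of Gbp2b (0 and 62.2 against 2.52 and 138 CPM, log2 fold change -1.15, SE 0.59, adjusted p = 0.77) and Iigp1 (38 and 100.3 against 68.6 and 150.4 CPM, log2 fold change -0.70, SE 0.38, adjusted p = 0.803). Iigp1 was lower in T cells in each library, and Gbp2b was lower in replicate 2. In replicate 1 Gbp2b had 0 UMIs in T cells, where 1 UMI is 3.17 CPM. That lies above the macrophage level, so a lower level was not detectable there. On simulated counts for this comparison the test recovered 38% of genes changed 2-fold and 97% of those changed 4-fold, so differences of 2-fold could be missed. The changed genes were drawn from those of higher level, with a fixed spread and no difference between libraries. Recovery for members with few UMIs was not simulated, and larger differences could be missed there. The C1q level of the T barcodes is given above. In the 33 and 84 T barcodes without a C1q UMI, Bst2 was lower than in macrophages (log2 fold change -1.46, SE 0.33, adjusted p = 0.00618). It was the 1 of 16 tested members called there, beside 2.79% of genes higher and 6.24% lower.

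Neutrophils likewise had 0 members higher and 0 lower than macrophages, with 0.483% of all genes higher and 0% lower. At an unadjusted p under 0.05 there were 4 members, a count without its share of all genes, and DESeq2's Wald test called 0. Ifitm1 stood at 623 and 1306 against 98.2 and 1260.1 CPM (log2 fold change 1.13, SE 0.44, adjusted p = 0.902), a difference present in replicate 1 alone, since the log2 fold change was 2.82 there and 0.07 in replicate 2. Bst2 stood at 519 and 332 against 729 and 388 CPM (log2 fold change -0.24, SE 0.27, adjusted p = 0.999).

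Plasmacytoid dendritic cells, a class known for making type I interferon, held more Bst2 than macrophages. Bst2 stood at 2408 and 1106 against 729 and 388 CPM, a log2 fold change of 1.67 (SE 0.27, adjusted p = 4.53e-04), and both of their values lay above both macrophage values. It was the 1 member higher and 0 were lower, beside 1.45% of genes higher and 0.483% lower. Whether this Bst2 level follows interferon was not tested. Without the library as a block, and without the filter on low counts, 0 members passed. Ifi204 had 0 and 2 UMIs, or 0 and 56.7 CPM against 128 and 179 (log2 fold change -2.60, SE 0.81, adjusted p = 0.138), a fitted value that depends on the handling of the 0. Irf7 stood at 211 and 28.4 CPM in them against 149 and 123 in macrophages. The 28 and 22 barcodes of this class leave most members at a few UMIs.

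Mature migratory dendritic cells, which have taken up antigen and turn towards lymph nodes, had 0 members higher and 0 lower than macrophages, beside 1.10% of genes higher and 0% lower. At an unadjusted p under 0.05 there were 2 members, a count without its share of all genes, and DESeq2's Wald test called 0. Those with the smallest adjusted p were Irgm1 and Stat2. Irgm1 had 0 UMIs in both libraries, which allows up to 48.7 and 61 CPM, against 34 and 97.9 CPM in macrophages (adjusted p = 0.211). Stat2 also had 0 UMIs in both, against 20.8 and 48.6 CPM (adjusted p = 0.646). The limits lay above the macrophage level in replicate 1 for Irgm1 and in both libraries for Stat2, so a lower level was not detectable there, and other GTPase genes were present, with Gbp2 at 48.7 and 407 CPM and Gbp7 at 16.2 and 142.

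Barcodes within a class differed more in the antiviral genes than in the GTPase genes. Each barcode was thinned to 800 UMIs, which left out shallower ones, and the UMIs of 8 genes (Ifit1, Ifit2, Ifit3, Isg15, Rsad2, Usp18, Oasl1 and Oasl2) were summed. Counts spread at random would give a variance equal to their mean. In macrophages the variance over the mean was 2.47 and 2.49 for these genes against 1.30 and 1.49 for the GTPase panel. In T cells it was 1.82 and 1.64 against 1.47 and 1.30. The higher ratio fell to the antiviral genes in both classes and both libraries, and also in neutrophils and tumour-like barcodes. Of the 660 and 709 macrophages kept by thinning, 4.55% (3.09 to 6.43) and 3.81% (2.52 to 5.49) held 3 or more UMIs of the 8 antiviral genes, and 24.4% (21.2 to 27.9) and 34.4% (30.9 to 38) held any, with exact binomial intervals over barcodes. For the GTPase panel, 3 or more UMIs were found in 1.06% (0.427 to 2.17) and 11.1% (8.92 to 13.7) of them and any in 20.5% (17.4 to 23.7) and 59.2% (55.5 to 62.9). The share with 3 or more antiviral UMIs was thus near equal in the libraries, but that with any was higher in replicate 2. Both shares for the GTPase panel were higher in replicate 2.

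The ligands detected were nearly limited to interferon gamma. Over 21 interferon genes, Ifnb1 had 1 UMI, in macrophages of replicate 1, and no other type I interferon gene had any in these classes. In plasmacytoid dendritic cells 0 UMIs allow up to 63.4 and 85.1 CPM of a gene, with 3 UMIs as the limit. This lies above the Ifng level of T cells in replicate 1, so type I interferon RNA could be missed in the small classes. Ifng had 16 and 73 UMIs in T cells, or 50.7 CPM (29 to 82.3) and 126 CPM (98.9 to 159), a level higher in replicate 2. It also had 3 and 21 UMIs in macrophages, 0 and 9 in neutrophils and 0 and 4 in tumour-like barcodes. Cd3 RNA in replicate 2 stood at 169.6 CPM in those macrophages and 476 in those neutrophils against 1457 in T cells, where Ifng stood at 16.7, 40.4 and 126 CPM, and the part of T cell RNA in the Ifng of both classes was not tested. Cxcl9, a chemokine gene strongly induced by interferon gamma, stood at 496 and 1520.4 CPM in macrophages, and Cd274, the gene of PD-L1, at 20.8 and 201. Cxcl10, which answers to both interferons, stood at 216 and 322 CPM.

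Receptor and signalling genes were mostly higher in macrophages than in tumour-like barcodes, and 0 of them were lower. Both tested receptor genes passed, Ifnar2 (104 and 155 against 19.9 and 28.4 CPM, log2 fold change 1.94, SE 0.37, adjusted p = 8.99e-05) and Ifngr1 (124 and 163 against 32.8 and 16.9 CPM, log2 fold change 2.0, SE 0.42, adjusted p = 2.54e-04). Of 9 tested signalling genes 5 passed, with Ptpn6, a phosphatase of blood cells (log2 fold change 5.02, SE 0.40, adjusted p = 2.39e-10), Irf8, a transcription factor of myeloid cells (log2 fold change 4.48, SE 0.42, adjusted p = 3.12e-09), and Irf5 (log2 fold change 4.02, SE 0.50, adjusted p = 3.19e-07) having the smallest adjusted p. Of 5 tested nucleic acid sensing genes 4 passed, led by Unc93b1, the chaperone of endosomal Toll-like receptors (log2 fold change 5.42, SE 0.43, adjusted p = 2.41e-10), Tmem173, which encodes STING (log2 fold change 2.35, SE 0.45, adjusted p = 9.16e-05), and Samhd1, a nucleotide hydrolase (log2 fold change 1.66, SE 0.37, adjusted p = 5.46e-04). Among 26 further tested interferon-induced genes 19 were higher, led by Cxcl9 (log2 fold change 5.27, SE 0.45, adjusted p = 7.40e-10), Ifi203 (log2 fold change 4.0, SE 0.40, adjusted p = 1.03e-08) and Ifi207 (log2 fold change 6.07, SE 0.66, adjusted p = 3.89e-08). These values are from the same edgeR fit, in which 31.0% of all genes were higher. Between the leukocyte classes 1 pathway gene passed, Irf8, which was higher in plasmacytoid dendritic cells than in macrophages (845 and 284 against 172 and 183 CPM, log2 fold change 1.74, SE 0.39, adjusted p = 0.0132). Jak2 in mature dendritic cells (179 and 203 against 23.9 and 68.5 CPM, log2 fold change 2.14, SE 0.59, adjusted p = 0.0964) did not pass.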

How the data were processed

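Deposited files held raw UMI counts per gene and barcode for 2 libraries, unnormalised per the file headers; per the submitters' processing notes the authors used Cell Ranger 6.0.1, Seurat 4.0.1 and the build mm10. Gene reads on shared sequence (the Gbp, Ifitm and Ly6 families) may have been split or dropped by that counting, which was not tested. Median depth was 1309 and 1375 UMIs a barcode. Barcodes with at least 300 genes and under 10% mitochondrial UMIs were kept (2388 and 2837), and doublet calls (0.419% and 1.27%) were left out. Clusters (scanpy 1.11.5, leidenalg 0.10.2, resolution 1) were built without 144 genes of the lists, and 4271 of 5686 barcodes fell in the classes used. 

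UMIs were summed per class and library and tested in edgeR 4.0.16 (quasi-likelihood, TMM, filterByExpr, R 4.3.3), fitted over 8 classes with the library as a block, because classes of 1 library share its sample. With this block, the p-values measure only how differences between classes varied between these 2 libraries, pooled over the 8 classes, which may be technical. A difference between the libraries that all classes share does not enter them. On simulated counts for T cells against macrophages (1991 genes) 4.26% of calls were false. Alternatives were DESeq2 1.42.0, no filter, no block, 2 classes only, UMI gates on markers, a stricter cell filter (500 genes, 5% mitochondrial), doublets kept and each library left out; library ratios at 3-fold, centred on the median, by gates or by the stricter filter, total UMIs and 1 macrophage cluster a library were chosen after the data were seen. The members and lists were chosen with earlier results of these data known. Named in each comparison are up to 5 members a direction with the smallest adjusted p, or the 2 smallest where fewer than 2 passed, the 3 highest members of each class, all GTPase, Ifitm and Ly6 genes, Irf1, Irf7 and Stat2, and up to 3 genes of each pathway list that passed; other genes named were chosen after their values were seen. Gene positions are from GENCODE M21.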

Additional observations from a re-analysis of the deposited data

How the results depend on the processing

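Over 29 named log2 fold changes, 257 alternative values were counted as the same, 16 moved by more than the spread, 15 newly passed, 8 no longer passed and 4 turned direction. Of the 257, 24 without replicate 1 and 14 without replicate 2 have no p-value and no side of the threshold. They count as the same only because they lay within the SD of the 2 single-library values from the main value, a loose measure. The others of the 257 kept direction and side of the threshold. All 4 that turned direction were for macrophages against tumour-like barcodes. Gbp2 (-0.77), Gbp4 (-0.68) and Gbp7 (-0.21) turned without replicate 2, against 0.88, 1.52 and 1.57 without replicate 1. Bst2 stood at -0.14 without replicate 1 and 0.23 without replicate 2. These values follow TMM scaling, and in CPM Gbp7 and Bst2 were higher in macrophages of both libraries. The count of members higher in macrophages than in tumour-like barcodes was 25 of 36 tested with UMI gates and 29 of 38 with the stricter cell filter, where more members were tested. Fits of 2 classes alone, with 1 residual degree of freedom, called 2 members higher (Isg20 and Ifitm1) and 2 lower (Gbp2b and Ifit2) in T cells, 1 lower in plasmacytoid dendritic cells (Ifi204) and 1 lower in mature dendritic cells (Ifi27l2a). In T barcodes without a C1q UMI 1 member was lower. Without the filter 0 members passed in plasmacytoid dendritic cells. For UMI gates, the stricter filter, fits of 2 classes and fits without the block, the share of all genes called is not given. Their counts therefore support nothing about the members as a set.

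The library pairs the classes by construction. Without this replicate block 12 members were higher in macrophages than in tumour-like barcodes and 0 in plasmacytoid dendritic cells than in macrophages, and the block changed no other count of calls.

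With the type I panel lacking Bst2 and Ifi27l2a the mean GTPase share was 34.4% in macrophages, 25.5% in monocytes, 28.4% in neutrophils, 22.3% in type 2 dendritic-like, 26.4% in mature and 40.3% in plasmacytoid dendritic cells, 35.5% in T cells and 49.1% in tumour-like barcodes. Each library alone gave the shares printed per library. GTPase panel genes over 3-fold higher in replicate 2 were 5 in macrophages and 1 in tumour-like barcodes, beside 4.97% and 12.5% of all genes. Centred on the median ratio, 7 in macrophages and 2 in tumour-like barcodes were over 2-fold higher, beside 8.75% and 15.5% of all genes. For the type I panel, 3-fold, centring on the median ratio and UMI gates gave 0, 1 and 1 in macrophages and 1, 1 and 2 in neutrophils, and 3-fold gave 0 in tumour-like barcodes. The causes were not tested. UMI gates could not be fitted for plasmacytoid and mature dendritic cells, nor the stricter filter for these and neutrophils, as under 15 barcodes were left in a library, and a single library leaves no residual degrees of freedom. Counts of a few UMIs limit members in the small classes.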
